A study of Homo sapiens with 9 samples.

Results

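Voltage-gated calcium and sodium channel genes were followed through RNA-seq libraries of TC-32, an established human cell line from Ewing sarcoma, a tumour driven by the fusion protein EWSR1::FLI1. Symbols matched 39 of the 58381 genes in the deposited count table, and 37 of them are described here. These comprise 10 genes for the pore-forming alpha-1 subunits of calcium channels, 4 for alpha-2/delta, 4 for beta and 8 for gamma subunits, 8 for the pore-forming alpha subunits of sodium channels and 3 for sodium channel beta subunits. The comparison addresses how transcription responds to added ETS1, a transcription factor of the ETS family, while the fusion is present. There were 3 groups of 3 libraries. RFP libraries came from cells with the lentiviral pLOC vector carrying red fluorescent protein, and ETS1-Low and ETS1-High libraries came from cells with the same vector carrying a synthetic human ETS1 cDNA. All groups share the TC-32 background, and the protocol given for every sample names lentiviral transduction, puromycin selection and single-cell sorting. ETS1-High clones were chosen to match the ETS1 level of cells depleted of the fusion, and ETS1-Low cells have less. The number of clones behind a group is not given, and nothing says that its libraries came from separate cultures. The p-values therefore measure only the spread between these libraries, and a difference between clones cannot be told apart from an effect of ETS1.

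Voltage-gated channels open when the membrane depolarises. Sodium channel alpha subunits carry the fast inward current of action potentials, and their beta subunits adjust gating and act in cell adhesion. Calcium channel alpha-1 subunits form the calcium pore and set the channel type: L-type channels need strong depolarisation and open for long, whereas T-type channels open near the resting potential and close quickly. Beta subunits bind the pore from the cytoplasm and help it reach the membrane, alpha-2/delta subunits sit outside the cell and raise surface density, and several gamma subunits chiefly serve as auxiliary proteins of AMPA-type glutamate receptors. These genes are best known from neurons, heart and skeletal muscle, but tumour cells transcribe some of them as well.

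The totals of RSEM expected counts ran from 39484704 to 46654734 per library, of which the 37 genes held 8010 to 10280 counts. Levels within a gene are CPM, that is, counts scaled by TMM-normalised library size. Adjusted p-values come from the edgeR quasi-likelihood test unless another tool is named. The introduced gene followed the labels, since ETS1 had 1.81, 2.03 and 2.15 CPM in the RFP libraries, 10.6, 10.9 and 10.3 CPM in ETS1-Low and 19.4, 18.2 and 19.7 CPM in ETS1-High. All 10 Ewing sarcoma markers examined, CD99 and NKX2-2 among them, passed the filter on low counts, and their summed level was 2578 to 2686 CPM in RFP and 3863 to 3949 CPM over the ETS1 libraries. The blood cell marker PTPRC, the epithelial markers EPCAM and CDH1 and the muscle regulator MYOD1 stayed under 10 counts in every library, and CD3E was at 0. Other genes of these lists were present: 1 of 3 blood cell, 2 of 4 epithelial, 4 of 6 muscle and 4 of 5 fibroblast markers were tested. The summed blood cell level was 1.79 to 1.97 CPM in RFP, 2.09 to 2.54 in ETS1-Low and 0.660 to 1.31 in ETS1-High. The summed epithelial level was 78.1 to 82.5, 156 to 165 and 110.2 to 112, the muscle level 26.1 to 27.8, 40.6 to 43.0 and 44.2 to 46.5 and the fibroblast level 47.7 to 54.6, 30.3 to 33.5 and 51.4 to 58.5 CPM, each given for RFP first, then ETS1-Low, then ETS1-High. Their part in the channel results was not tested. In bulk RNA, fewer cells with a transcript and less of it per cell cannot be told apart.

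Most channel genes with measurable transcripts differed between the groups. In ETS1-High against RFP, each subunit class except the sodium channel beta subunits held called genes in both directions. The 3 sodium channel beta genes were all lower in ETS1-Low against RFP. Of the 37 genes, 23 passed the filter and 14 did not. In ETS1-High against RFP, 22 of the 23 were called by the edgeR quasi-likelihood test at an adjusted p under 0.05, where 74.2% of all tested genes were. Of them, 10 were higher (background 37.0%) and 12 lower (37.2%). A change of at least 2-fold was reached by 17, against 21.0% of all tested genes: 7 were higher (9.64%) and 10 lower (11.4%). In ETS1-Low against RFP, 20 were called beside 74.1% of all tested genes, 5 higher (37.9%) and 15 lower (36.2%). There 15 changed at least 2-fold beside 20.6%, 3 higher (8.47%) and 12 lower (12.2%). Between ETS1-High and ETS1-Low, 13 were called beside 59.2%, 11 higher in ETS1-High (29.9%) and 2 lower (29.3%). At least 2-fold there were 9 beside 9.74%, 7 higher (6.05%) and 2 lower (3.69%). The median log2 fold changes of these genes were -0.33, -1.17 and 0.48 in the 3 comparisons, and those of all tested genes were -0.01, 0.01 and 0.00. Some low genes could pass the filter only through the group in which they were higher. In ETS1-High against RFP, 4 of the 23 had a group with under 10 counts in each library, and in ETS1-Low against RFP 7 did, so these counts describe the genes and support nothing further. Both ETS1 groups are set against the same RFP libraries, and each comparison's values are given side by side.

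**Figure D1:**
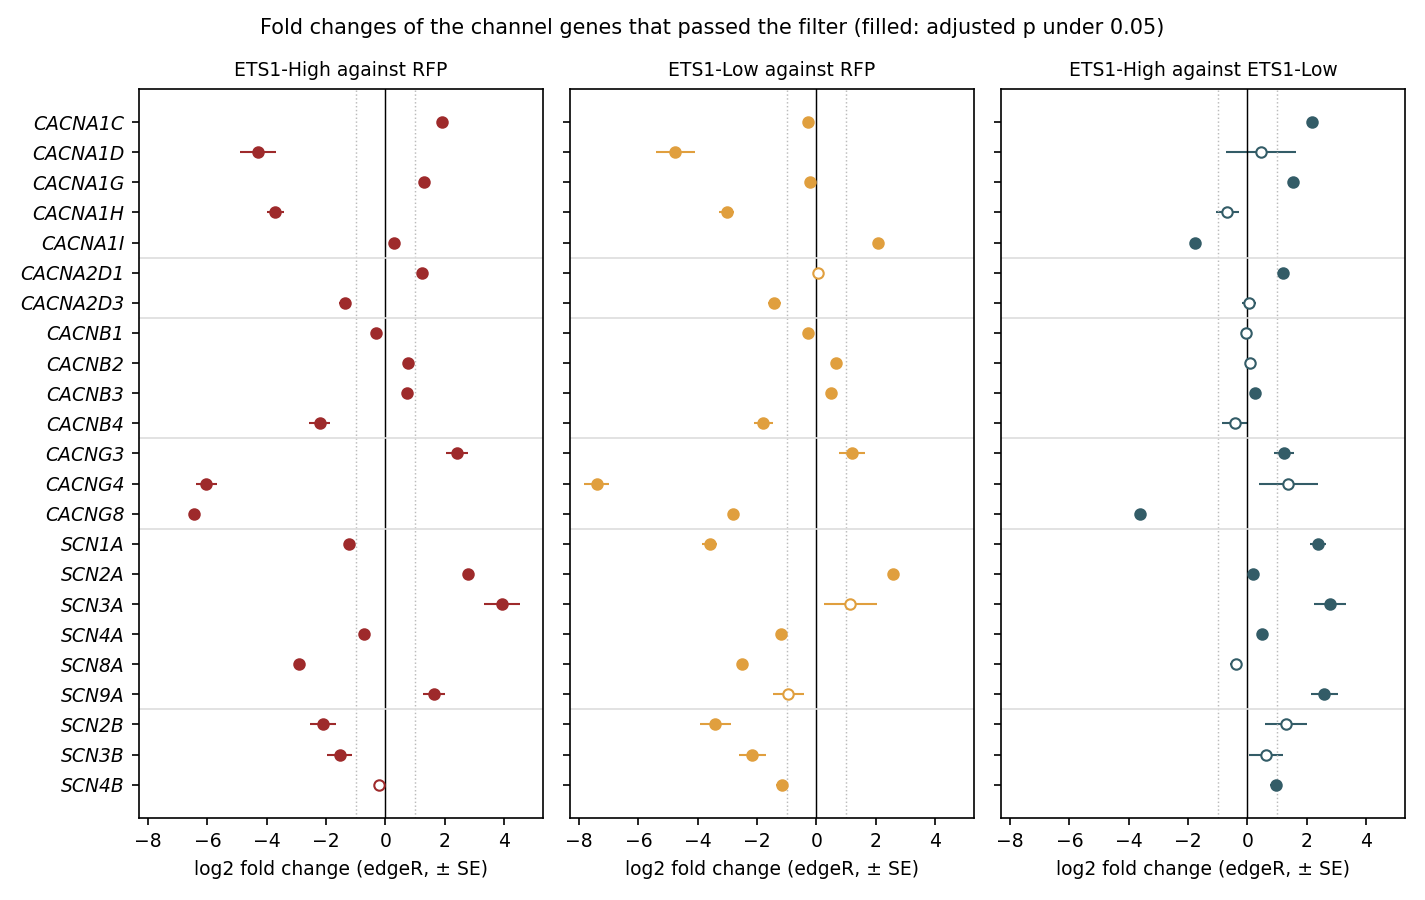
Log2 fold change with its standard error for the 23 channel genes that passed the filter, in 3 comparisons (panels); filled points have an adjusted p under 0.05, dotted lines mark a 2-fold change and grey lines separate subunit classes. CACNA1I, SCN2A, CACNB2, CACNB3 and CACNG3 are filled and lie to the right of 0 in both comparisons with RFP. CACNG8 and CACNG4 lie farthest to the left in ETS1-High against RFP.

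Library values did not overlap between the groups for 22 of the 23 genes in ETS1-High against RFP (75.5% of all tested genes), for 21 in ETS1-Low against RFP (76.0%) and for 15 between the ETS1 groups (63.2%). SCN4B was the gene that overlapped in ETS1-High against RFP, and CACNA2D1 and SCN3A overlapped in ETS1-Low against RFP.

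Promoter sequence is shown for 3 genes with large changes in opposite directions and at least 100 counts on average: SCN2A and CACNA1C, which rose in ETS1-High, and SCN8A, which fell. ETS proteins recognise a core of GGAA, and the fusion's FLI1 part binds the same core, often in tandem repeats. The stretches come from RefSeq (GRCh38.p14), read on the plus strand within the 250 bases before each gene's RefSeq start and free of exons in GENCODE v44. GGAA, or its complement TTCC, is in capitals. All 3 windows lie inside the gene as GENCODE draws it, since other transcripts start farther upstream.
SCN2A, chr2:165239164-165239371: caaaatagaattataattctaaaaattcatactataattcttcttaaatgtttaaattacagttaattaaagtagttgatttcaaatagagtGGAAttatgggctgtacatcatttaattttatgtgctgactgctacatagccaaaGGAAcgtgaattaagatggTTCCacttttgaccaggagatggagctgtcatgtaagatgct
CACNA1C, chr12:2052737-2052986: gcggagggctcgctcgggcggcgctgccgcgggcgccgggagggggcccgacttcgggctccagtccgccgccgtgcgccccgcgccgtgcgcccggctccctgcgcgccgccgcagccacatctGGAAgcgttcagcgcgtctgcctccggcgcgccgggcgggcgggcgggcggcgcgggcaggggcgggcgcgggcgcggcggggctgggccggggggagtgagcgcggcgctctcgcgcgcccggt
SCN8A, chr12:51591000-51591223: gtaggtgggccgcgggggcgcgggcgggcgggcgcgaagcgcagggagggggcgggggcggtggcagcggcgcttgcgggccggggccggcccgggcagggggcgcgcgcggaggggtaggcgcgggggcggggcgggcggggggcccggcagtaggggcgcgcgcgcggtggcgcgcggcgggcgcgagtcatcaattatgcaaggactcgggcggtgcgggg
The SCN2A window held 3 cores and that of CACNA1C 1, and SCN8A had 0. Over 35116 RefSeq promoters of the same length, 92.7% held at least 1 core on either strand, with a median of 3. Base composition differed as well: over the full 250 bases, G and C made up 29.2% for SCN2A and 85.6% for both others. Among the 25 of 37 channel genes with an entry, 21 held GGAA. The longer ETS site CCGGAAGT, which contains the core, stood in 1 of them (SCN11A), beside 3.42% of all promoters. The tandem GGAAGGAA, which holds the core at both ends, stood in 1 (CACNA1A), beside 3.06%. SCN11A and CACNA1A were both below the filter in these cells. A match to these letters is a description of the window and not a binding site.

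Among calcium pores, L-type and T-type genes made up nearly all of the transcripts. CACNA1C (ENSG00000151067.21; chromosome 12, 1970772 to 2697950, plus strand), the L-type pore of heart, smooth muscle and many neurons, had 6.90, 6.17 and 6.68 CPM in the RFP libraries, 5.37, 5.45 and 5.54 CPM in ETS1-Low and 25.9, 24.6 and 24.2 CPM in ETS1-High. The 3 ETS1-High libraries stood far above the other 6, and ETS1-Low lay just under RFP without overlap. Its log2 fold change was 1.92 (SE 0.07, adjusted p 1.04e-30) in ETS1-High against RFP, 2.19 (SE 0.07, adjusted p 1.23e-31) against ETS1-Low and -0.27 (SE 0.08, adjusted p 0.00194) in ETS1-Low against RFP. The small fall in ETS1-Low did not pass on FPKM values with a pseudocount of 1 (-0.05, adjusted p 0.65, limma). CACNA1D, the other neuronal and endocrine L-type pore, was scarce: its counts were 22, 30 and 21 in RFP, 1, 1 and 0 in ETS1-Low and 0, 2 and 1 in ETS1-High. Its summed level was 31.4-fold lower (95% counting interval 8.39 to 264) in ETS1-Low and 21.8-fold lower (95% counting interval 7.18 to 108) in ETS1-High, where the intervals are exact (Clopper-Pearson) and cover counting error only. CHDH overlaps exons of CACNA1D on the opposite strand and was low in the same libraries, with 131 to 159 counts in RFP and 10 to 25 in the ETS1 libraries. Whether the counting used strand is not given in the sources used here.

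The 3 T-type pores each followed a pattern of their own. CACNA1I (ENSG00000100346.17; chromosome 22, 39570753 to 39689735, plus strand) was the most abundant alpha-1 transcript in RFP and had 22.4, 21.0 and 21.6 CPM in the RFP libraries, 89.9, 90.8 and 93.6 CPM in ETS1-Low and 26.5, 27.3 and 26.5 CPM in ETS1-High. All 3 ETS1-Low libraries stood above the other 6, and ETS1-High lay a little above RFP. The log2 fold change was 2.08 (SE 0.04, adjusted p 1.57e-42) in ETS1-Low against RFP, 0.31 (SE 0.04, adjusted p 1.48e-08) in ETS1-High against RFP and -1.77 (SE 0.04, adjusted p 6.65e-39) between the ETS1 groups. Tested genes within 10 Mb of CACNA1I were themselves higher, by a median of 0.40 in ETS1-Low and 0.34 in ETS1-High, so that 1.68 and -0.04 remained after subtraction. The difference in ETS1-High was thus no larger than that of its surroundings. CACNA1G (ENSG00000006283.17; chromosome 17, 50560715 to 50627474, plus strand), a T-type pore of thalamic and cardiac pacemaker cells, had 4.55, 5.59 and 5.12 CPM in the RFP libraries, 4.42, 4.29 and 4.37 CPM in ETS1-Low and 13.5, 12.5 and 11.5 CPM in ETS1-High. ETS1-High was the group with the high values here: its log2 fold change was 1.30 (SE 0.08, adjusted p 1.43e-19) against RFP and 1.52 (SE 0.09, adjusted p 4.92e-21) against ETS1-Low. In ETS1-Low against RFP its log2 fold change was -0.22 (SE 0.10, adjusted p 0.0328), a call that was lost in the DESeq2 test (adjusted p 0.0527) and without RFP replicate 2 or 3 or any single ETS1-Low replicate (adjusted p 0.0545 to 0.178, edgeR). CACNA1H (ENSG00000196557.12; chromosome 16, 1153106 to 1221771, plus strand), the remaining T-type pore, went the other way, with 2.20, 2.75 and 2.42 CPM in the RFP libraries, 0.264, 0.200 and 0.439 CPM in ETS1-Low and 0.178, 0.133 and 0.246 CPM in ETS1-High. RFP lay above all 6 ETS1 libraries, with log2 fold changes of -3.70 (SE 0.27, adjusted p 1.98e-17) in ETS1-High and -3.02 (SE 0.25, adjusted p 1.71e-15) in ETS1-Low. The ETS1 groups overlapped and were not separated by the test (log2 fold change -0.68, SE 0.38, adjusted p 0.125).

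**Figure D2:**
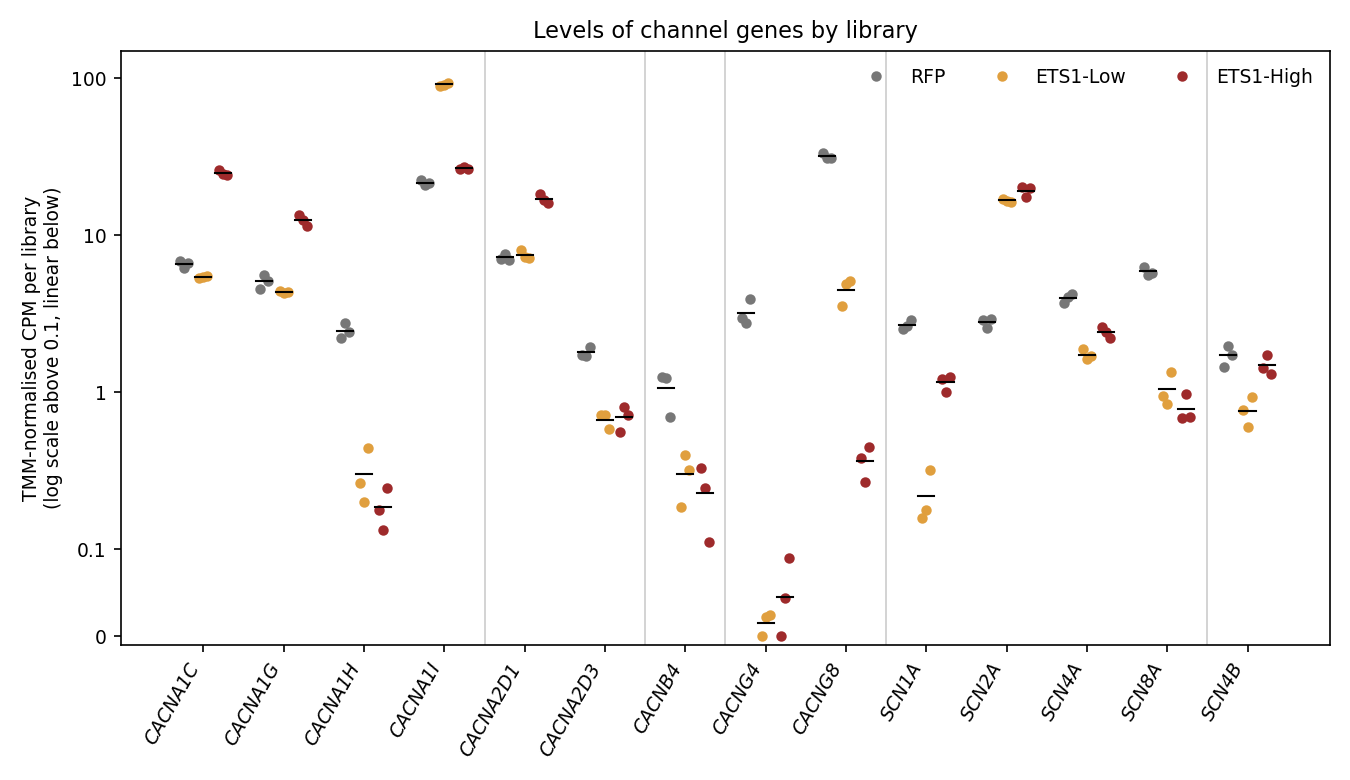
Level of the 14 channel genes that changed at least 2-fold in a comparison and reached a mean of 1 CPM in a group, as TMM-normalised CPM per library (log scale above 0.1, linear below); points are libraries, black bars group means, and grey lines separate subunit classes. CACNA1I is highest in ETS1-Low, CACNA1C and CACNA1G in ETS1-High, and CACNG8 descends from RFP through ETS1-Low to ETS1-High.

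To compare levels between genes, the deposited FPKM values, which are scaled to gene length, were summed over the 10 alpha-1 genes. The sum was 5.19 ± 0.178 FPKM in RFP, 11.1 ± 0.372 in ETS1-Low and 9.06 ± 0.0608 in ETS1-High (SD, n = 3), without overlap between the groups. CACNA1I supplied 46.0% ± 0.469 of it in RFP, 82.1% ± 1.19 in ETS1-Low and 30.1% ± 0.458 in ETS1-High. CACNA1C supplied 24.8% ± 2.61, 10.9% ± 1.88 and 47.6% ± 1.84 in the same order, and was the leading alpha-1 transcript in ETS1-High alone. The share of CACNA1G was 16.4% ± 1.77, 6.24% ± 1.04 and 20.9% ± 1.46, and that of CACNA1H went from 7.80% ± 1.16 in RFP to under 1% in both ETS1 groups. The mean level in RFP descended from CACNA1I (2.38 ± 0.0611 FPKM) over CACNA1C (1.29 ± 0.175), CACNA1G (0.847 ± 0.0651) and CACNA1H (0.403 ± 0.0513) to CACNA1D (0.213 ± 0.108). The 5 alpha-1 genes below the filter, CACNA1A, CACNA1B, CACNA1E, CACNA1F and CACNA1S, which include the P/Q-type, N-type and R-type pores of nerve terminals, had at most 5 counts in a library.

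**Figure D3:**
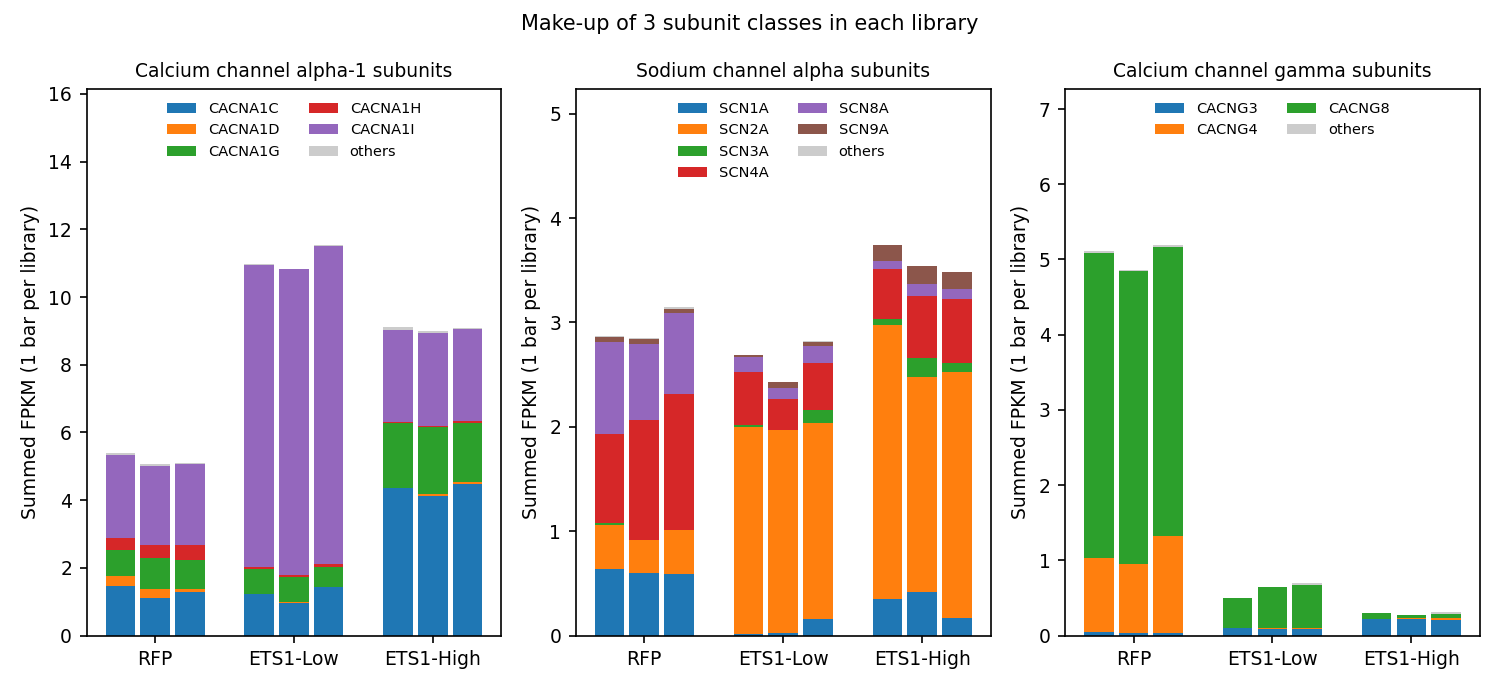
Summed FPKM of the calcium channel alpha-1, sodium channel alpha and calcium channel gamma genes, 1 stacked bar per library, with genes under 0.1 FPKM in every library pooled as others. CACNA1I fills most of the ETS1-Low bars on the left, SCN2A takes over the sodium channel bars in both ETS1 groups, and the gamma bars shrink from near 5.05 FPKM in RFP to 0.617 in ETS1-Low and 0.297 in ETS1-High.

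Alpha-2/delta subunits divided between CACNA2D1 and the other 3. CACNA2D1 (ENSG00000153956.15; chromosome 7, 81946444 to 82443956, minus strand) had 7.11, 7.62 and 6.99 CPM in the RFP libraries, 8.12, 7.27 and 7.13 CPM in ETS1-Low and 18.3, 16.9 and 16.0 CPM in ETS1-High. The ETS1-High libraries were high, and ETS1-Low overlapped RFP. The log2 fold change was 1.24 (SE 0.07, adjusted p 3.56e-21) in ETS1-High against RFP and 1.19 (SE 0.07, adjusted p 9.37e-20) against ETS1-Low, and ETS1-Low did not differ from RFP at the threshold (log2 fold change 0.05, SE 0.08, adjusted p 0.572). As in CACNA1C, with which the subunit can assemble, ETS1-High was the group that stood apart. CACNA2D3 had 1.72, 1.71 and 1.95 CPM in the RFP libraries, 0.714, 0.712 and 0.586 CPM in ETS1-Low and 0.559, 0.801 and 0.717 CPM in ETS1-High. RFP was the high group, by log2 fold changes of -1.36 (SE 0.21, adjusted p 1.07e-07) in ETS1-High and -1.42 (SE 0.21, adjusted p 6.21e-08) in ETS1-Low, and the ETS1 groups overlapped. CACNA2D4 and CACNA2D2 did not pass the filter. CACNA2D4 had 8, 30 and 20 counts in RFP, 0, 1 and 1 in ETS1-Low and 0, 2 and 4 in ETS1-High, and its 3 RFP libraries spread widely. CACNA2D2 had 15, 14 and 10 counts in RFP and at most 8 in an ETS1 library.

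Beta subunits were the most abundant class per gene length, and 3 of the 4 changed less than 2-fold in every comparison. CACNB3 had 16.6 ± 1.39 FPKM in RFP, CACNB2 8.25 ± 0.182 and CACNB1, the skeletal muscle form, 6.74 ± 0.348 (SD, n = 3), above every alpha-1 gene there. In CPM, CACNB3 had 26.1, 30.3 and 26.7 CPM in the RFP libraries, 35.7, 41.0 and 40.6 CPM in ETS1-Low and 46.1, 47.2 and 45.5 CPM in ETS1-High. It rose on the log2 scale by 0.74 (SE 0.05, adjusted p 3.06e-11) in ETS1-High and 0.50 (SE 0.06, adjusted p 3.39e-08) in ETS1-Low against RFP, with RFP below all 6 ETS1 libraries. Between the ETS1 groups the log2 fold change was 0.24 (SE 0.05, adjusted p 0.000444). CACNB2, the main cardiac beta subunit, had 25.6, 24.3 and 24.6 CPM in the RFP libraries, 39.7, 39.1 and 40.1 CPM in ETS1-Low and 41.0, 41.6 and 42.4 CPM in ETS1-High. It rose on the log2 scale by 0.75 (SE 0.04, adjusted p 2.24e-22) and 0.68 (SE 0.04, adjusted p 1.94e-20) in the same comparisons, and the ETS1 groups were not separated by the test (log2 fold change 0.07, SE 0.04, adjusted p 0.106). CACNB1 fell slightly, from 16.0 ± 0.240 CPM in RFP to 13.3 ± 0.346 in ETS1-Low and 12.8 ± 0.271 in ETS1-High (log2 fold changes -0.27 and -0.33, adjusted p 9.17e-05 and 3.5e-06, edgeR). CACNB4, a brain form and the scarcest, had 1.25, 1.24 and 0.697 CPM in the RFP libraries, 0.185, 0.400 and 0.317 CPM in ETS1-Low and 0.330, 0.245 and 0.112 CPM in ETS1-High. RFP lay above the ETS1 libraries, with log2 fold changes of -2.22 (SE 0.34, adjusted p 1.24e-07) in ETS1-High and -1.78 (SE 0.33, adjusted p 3.64e-06) in ETS1-Low. A gene on its own strand, ENSG00000283228, overlaps its exons and had 124 to 295 counts, so how reads were divided between them is uncertain.

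The largest falls in ETS1-High among the 23 tested genes were those of 2 gamma subunits. CACNG8 (ENSG00000142408.4; chromosome 19, 53962937 to 53990215, plus strand), which encodes a transmembrane regulator of AMPA receptors, had 33.2, 31.3 and 31.1 CPM in the RFP libraries, 3.54, 4.87 and 5.13 CPM in ETS1-Low and 0.381, 0.267 and 0.448 CPM in ETS1-High. Each group was clear of the next, in the order RFP, ETS1-Low, ETS1-High. The log2 fold change was -6.44 (SE 0.13, adjusted p 3.78e-32) in ETS1-High against RFP, -2.81 (SE 0.08, adjusted p 1.23e-26) in ETS1-Low against RFP and -3.63 (SE 0.17, adjusted p 9.53e-20) between the ETS1 groups. Its surroundings on chromosome 19 went up instead: the local median was 0.40 in ETS1-High against RFP and 0.39 in ETS1-Low against RFP. Its gene neighbours CACNG7 and CACNG6, 19.0 kb and 1.42 kb away, had at most 3 counts in a library. CACNG4 (ENSG00000075461.5; chromosome 17, 66964707 to 67033398, plus strand), of the same AMPA receptor family, had 144, 129 and 191 counts in RFP, 0, 1 and 1 in ETS1-Low and 0, 2 and 4 in ETS1-High. It was thus close to lost in both ETS1 groups, 199.6-fold lower (95% counting interval 55.0 to 1653) in ETS1-Low and 69.4-fold lower (95% counting interval 31.6 to 190.0) in ETS1-High. The RFP libraries averaged 3.22 ± 0.613 CPM, the adjusted p was 1.03e-21 and 3.22e-21 (edgeR), and the ETS1 groups overlapped. CACNG5 and CACNG1 lie beside it on chromosome 17, 70.0 kb and 11.2 kb away, and had 1 count and 0 counts in all 9 libraries together. CACNG3, another member of that family, was low and went up: it had 7, 4 and 6 counts in RFP, 11, 12 and 11 in ETS1-Low and 25, 30 and 28 in ETS1-High. Its log2 fold changes were 2.42 (SE 0.38, adjusted p 1.77e-07) in ETS1-High and 1.20 (SE 0.44, adjusted p 0.0131) in ETS1-Low against RFP, the second lost without RFP replicate 2 (adjusted p 0.0611, edgeR). With 0 counts a library of this depth allows up to 0.0615 to 0.0793 CPM (3 counts), which is the limit for CACNG1 and CACNG2.

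Sodium channel alpha subunits changed in make-up. SCN2A (ENSG00000136531.15; chromosome 2, 165194993 to 165392310, plus strand), a pore of the axon initial segment in cortical neurons, had 2.87, 2.56 and 2.95 CPM in the RFP libraries, 17.1, 16.7 and 16.3 CPM in ETS1-Low and 20.2, 17.5 and 19.9 CPM in ETS1-High. All 6 ETS1 libraries lay above RFP, by log2 fold changes of 2.78 (SE 0.08, adjusted p 2.96e-34) in ETS1-High and 2.58 (SE 0.08, adjusted p 1.77e-32) in ETS1-Low. The ETS1 groups differed slightly (log2 fold change 0.20, SE 0.06, adjusted p 0.00533), beside a local median of 0.18, and this call was lost in all 3 fits of FPKM values (adjusted p 0.0761 to 0.159, limma). ENSG00000236283, which overlaps exons of SCN2A on its own strand and of SCN3A on the other, had 2 to 9 counts in RFP and 20 to 34.0 in the ETS1 libraries. SCN8A (ENSG00000196876.15; chromosome 12, 51590266 to 51812864, plus strand), the pore of nodes of Ranvier, had 6.32, 5.61 and 5.76 CPM in the RFP libraries, 0.952, 0.845 and 1.34 CPM in ETS1-Low and 0.685, 0.979 and 0.694 CPM in ETS1-High. The log2 fold change was -2.90 (SE 0.16, adjusted p 1.87e-22) in ETS1-High and -2.49 (SE 0.15, adjusted p 1.4e-20) in ETS1-Low, and all 6 ETS1 libraries lay under RFP. The ETS1 groups overlapped (log2 fold change -0.40, SE 0.20, adjusted p 0.0871), although without ETS1-Low replicate 2 or ETS1-High replicate 2 that difference passed, with adjusted p of 0.0322 and 0.0266 (edgeR).

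SCN1A (ENSG00000144285.19; chromosome 2, 165984641 to 166149214, minus strand), the pore whose loss causes Dravet epilepsy, had 2.51, 2.65 and 2.89 CPM in the RFP libraries, 0.159, 0.178 and 0.317 CPM in ETS1-Low and 1.22, 1.00 and 1.25 CPM in ETS1-High. The groups stood apart in the order RFP, ETS1-High, ETS1-Low. Its log2 fold change was -1.21 (SE 0.18, adjusted p 3.16e-08) in ETS1-High, -3.60 (SE 0.24, adjusted p 5.92e-19) in ETS1-Low and 2.39 (SE 0.27, adjusted p 8.85e-11) between the ETS1 groups. SCN4A, the skeletal muscle pore, had 3.70, 4.08 and 4.22 CPM in the RFP libraries, 1.88, 1.62 and 1.71 CPM in ETS1-Low and 2.62, 2.42 and 2.22 CPM in ETS1-High. It was also highest in RFP and lowest in ETS1-Low, without overlap, with log2 fold changes of -0.73 (SE 0.13, adjusted p 1.26e-06) in ETS1-High, -1.21 (SE 0.13, adjusted p 2.19e-11) in ETS1-Low and 0.48 (SE 0.14, adjusted p 0.00365) between them. SCN3A, best known from the fetal brain, and SCN9A, the pore of pain-sensing neurons, were near the lower limit of these libraries and were high in ETS1-High. SCN3A had 3, 0 and 1 counts in RFP, 3, 1 and 4 in ETS1-Low and 16, 28 and 16 in ETS1-High. SCN9A had 10, 6 and 9 counts in RFP, 4, 5 and 2 in ETS1-Low and 20, 21 and 30 in ETS1-High. The ETS1-High libraries lay above the other 6 in both genes. Against RFP the log2 fold change in ETS1-High was 3.93 (SE 0.60, adjusted p 7.91e-08) for SCN3A and 1.65 (SE 0.38, adjusted p 0.000133) for SCN9A, and neither passed in ETS1-Low (adjusted p 0.243 and 0.106, edgeR). The counts of SCN1A, SCN2A, SCN3A and SCN9A were not whole in 3 to 6 libraries each, and all of these were ETS1 libraries. For SCN1A and SCN2A they were all 6, and for SCN3A and SCN9A the 3 ETS1-High libraries. RSEM gives such values where reads fit more than 1 gene. The low levels of SCN1A, SCN3A and SCN9A, and the rises of SCN3A and SCN9A in ETS1-High, are uncertain to that extent. SCN10A and SCN11A, pores of sensory neurons, had at most 7 counts in a library.

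Summed over the 8 alpha genes described, FPKM was 2.96 ± 0.168 in RFP, 2.65 ± 0.199 in ETS1-Low and 3.59 ± 0.136 in ETS1-High (SD, n = 3). The sum of their CPM, which is not scaled to length, put ETS1-Low above RFP instead, with 15.7 ± 0.543, 19.9 ± 0.416 and 24.6 ± 1.39 CPM. In RFP 4 genes held most of the summed FPKM: SCN4A took 37.1% ± 6.48, SCN8A 26.9% ± 3.27, SCN1A 20.7% ± 1.81 and SCN2A 13.1% ± 1.72. SCN2A held 73.4% ± 6.59 in ETS1-Low and 65.4% ± 6.40 in ETS1-High, the largest share in all 6 libraries. SCN8A held 5.00% ± 0.800 and 2.80% ± 0.629 there. Below SCN2A the shares varied between libraries. SCN1A ranged from 4.89% to 11.9% of the summed FPKM between the ETS1-High libraries, although its counts were 48, 45 and 56.

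The sodium channel beta genes SCN2B, SCN3B and SCN4B were lower in ETS1-Low than in RFP, and SCN2B and SCN3B in ETS1-High as well. SCN4B, the most abundant of them per gene length in every group, had 1.45, 1.98 and 1.72 CPM in the RFP libraries, 0.767, 0.600 and 0.928 CPM in ETS1-Low and 1.42, 1.74 and 1.30 CPM in ETS1-High. ETS1-Low was the low group: its log2 fold change was -1.17 (SE 0.21, adjusted p 1.75e-06) against RFP, whereas ETS1-High overlapped RFP and did not pass (log2 fold change -0.21, SE 0.19, adjusted p 0.311). Between the ETS1 groups it was 0.96 (SE 0.21, adjusted p 0.000111). Its neighbour SCN2B, 9.92 kb away on chromosome 11, had 30, 26 and 22 counts in RFP, 2, 2 and 2 in ETS1-Low and 2, 3 and 11 in ETS1-High. It was 11.2-fold lower (95% counting interval 4.91 to 31.4) in ETS1-Low and 4.37-fold lower (95% counting interval 2.53 to 8.03) in ETS1-High, where replicate 3 stood above replicates 1 and 2. SCN3B had 20, 27 and 22 counts in RFP, 5, 4 and 4 in ETS1-Low and 11, 2 and 8 in ETS1-High. RFP lay above all ETS1 libraries, and the log2 fold change of SCN3B was -1.54 (SE 0.42, adjusted p 0.000984) in ETS1-High and -2.16 (SE 0.46, adjusted p 4.2e-05) in ETS1-Low. Between the ETS1 groups SCN2B and SCN3B did not pass (adjusted p 0.104 and 0.352), although SCN2B passed without ETS1-High replicate 1 (adjusted p 0.047, edgeR).

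Several of these genes are neighbours, and some neighbours moved in opposite directions. On chromosome 2, SCN3A, SCN2A, SCN1A and SCN9A lie in a cluster in that order, with SCN1A 592 kb beyond SCN2A and SCN9A 46.0 kb beyond SCN1A. In ETS1-Low against RFP, SCN2A had a log2 fold change of 2.58 and SCN1A of -3.60, whereas in ETS1-High SCN3A and SCN2A were both higher. Tested genes within 10 Mb of SCN2A and SCN1A were higher in ETS1-Low by medians of 0.38 and 0.41, and in ETS1-High by 0.56 and 0.68. After subtraction SCN2A was at 2.22 and 2.20 in ETS1-High and ETS1-Low, and SCN1A at -1.89 and -4.01. The largest local median among the 23 genes was that of CACNB4, 0.86 in ETS1-High, and the gene itself was at -2.22. On chromosome 3, CACNA1D and CACNA2D3 lie 309 kb apart and were both highest in RFP. The local median there was -0.05 for CACNA1D and -0.06 for CACNA2D3 in ETS1-High, and -0.01 and -0.02 in ETS1-Low. Over the 23 genes the local median ran from -0.18 to 0.86 in ETS1-High and from -0.10 to 0.51 in ETS1-Low, and subtracting it turned the sign of 1 called value, that of CACNA1I in ETS1-High against RFP.

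**Figure D4:**
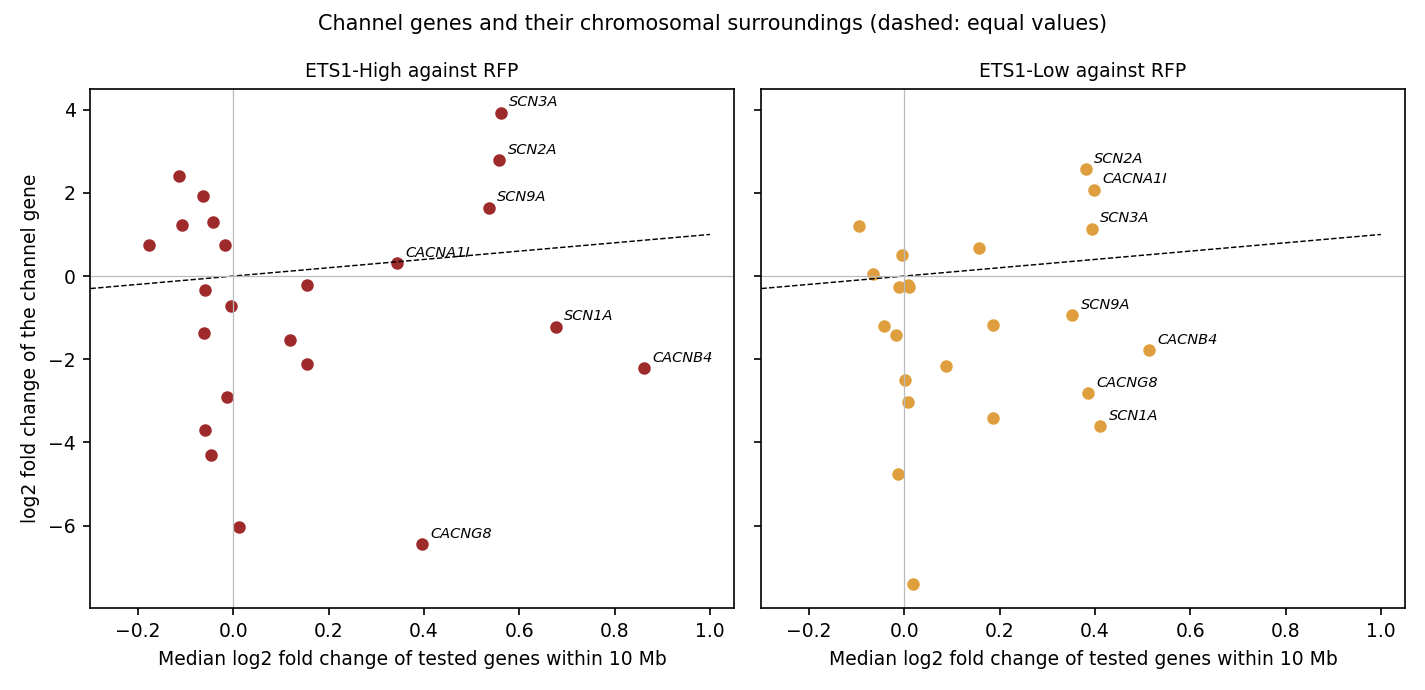
Log2 fold change of each of the 23 channel genes against the median log2 fold change of the tested genes within 10 Mb, for ETS1-High (left) and ETS1-Low (right) against RFP; the dashed line marks equal values and genes with a local median of 0.25 or more are named. Most points lie far from the line, CACNA1I in ETS1-High lies on it, and SCN2A and SCN1A share a positive local median but lie on opposite sides of 0.

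Genes that work with these channels were read from lists drawn up by function. Their counts stand against 37.0% of all tested genes called higher and 37.2% lower in ETS1-High against RFP, and 37.9% and 36.2% in ETS1-Low. Among partners of sodium channels, 7 of 9 genes were tested, 0 were higher and 6 lower in ETS1-High against RFP, and 0 higher and 6 lower in ETS1-Low (median log2 fold changes -0.54 and -0.64). ANK3, which anchors sodium channels at the axon initial segment, went from 26.3 ± 0.779 CPM in RFP to 15.2 ± 0.881 in ETS1-Low and 13.8 ± 0.516 in ETS1-High. ANK2, its relative, went from 6.08 ± 0.388 to 0.220 ± 0.122 and 0.227 ± 0.199 CPM, and FGF13, which binds the channels' cytoplasmic tail, from 127 ± 3.00 to 106 ± 1.86 and 94.9 ± 2.16 CPM. All 3 passed in both comparisons with RFP, although around FGF13 the local median in ETS1-Low was -0.56, below its own -0.26. Among regulators of calcium channels, 8 of 12 genes were tested, 4 were higher and 4 lower in ETS1-High against RFP, and 4 higher and 3 lower in ETS1-Low (median log2 fold changes 0.38 and 0.32). STAC2, an adaptor that slows inactivation of L-type channels, fell from 9.88 ± 0.544 CPM in RFP to 1.31 ± 0.179 in ETS1-Low and 1.67 ± 0.217 in ETS1-High. CALM3 and CALM2, which encode the calcium sensor calmodulin, rose on the log2 scale by 1.01 and 0.89 in ETS1-High and 1.06 and 0.73 in ETS1-Low (local medians 0.35, 0.22, 0.34 and 0.28). In the sodium leak channel complex, the accessory gene NALF1 (listed as FAM155A) rose from 2.28 ± 0.344 CPM in RFP to 12.7 ± 0.492 in ETS1-Low and 26.3 ± 0.429 in ETS1-High, while its pore NALCN had at most 3 counts in a library. In this list 3 of 5 genes were tested, 2 were higher and 0 lower in ETS1-High against RFP, and 1 higher and 2 lower in ETS1-Low (median log2 fold changes 0.35 and -0.40). FAM155B had log2 fold changes of 0.35 and -0.40 and UNC80, a scaffold of the channel, of 0.01 and -1.37, of which the value of UNC80 in ETS1-High did not pass (adjusted p 0.954, edgeR).

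An intracellular calcium channel, ITPR1, had a larger increase in ETS1-High against RFP than any of the 23 tested channel genes. This inositol trisphosphate receptor, which releases calcium from the endoplasmic reticulum, had 7.02, 6.25 and 7.25 CPM in the RFP libraries, 106, 106 and 105 CPM in ETS1-Low and 279, 263 and 254 CPM in ETS1-High. The groups rose in the order RFP, ETS1-Low, ETS1-High, each clear of the next, with log2 fold changes of 3.95 (SE 0.05, adjusted p 1.33e-49) in ETS1-Low and 5.27 (SE 0.05, adjusted p 6.99e-56) in ETS1-High, and local medians of -0.08 and -0.04. RYR2, the ryanodine receptor of heart and brain, had 41.4 ± 1.07 CPM in RFP, 5.56 ± 0.478 in ETS1-Low and 27.7 ± 1.03 in ETS1-High. Its log2 fold changes from RFP were -2.90 in ETS1-Low and -0.58 in ETS1-High. The second did not pass in the 3 FPKM fits (adjusted p 0.0535 to 0.0584, limma). Its estimate was larger there (-1.22 to -1.07), and the RFP libraries spread widely, with 5.3, 19.27 and 6.54 FPKM. ITPR3 rose on the log2 scale by 0.97 in ETS1-High and 0.89 in ETS1-Low. Among calcium release channels, 5 of 6 genes were tested, 2 were higher and 3 lower in ETS1-High against RFP, and 2 higher and 3 lower in ETS1-Low (median log2 fold changes -0.43 and -0.84). The sodium-calcium exchanger SLC8A1, which extrudes calcium, had 146, 165 and 187 counts in RFP and 1 to 4 in each ETS1 library. The endoplasmic reticulum pump ATP2A3 rose by 1.99 and 1.53, and the plasma membrane pump ATP2B1 fell by 0.50 and 0.75 on the log2 scale, in ETS1-High and ETS1-Low. Of the pumps and exchangers, 10 of 13 genes were tested, 5 were higher and 4 lower in ETS1-High against RFP, and 5 higher and 4 lower in ETS1-Low (median log2 fold changes 0.12 and 0.07). In store-operated calcium entry, 5 of 5 genes were tested, 1 was higher and 3 lower in ETS1-High against RFP, and 2 higher and 2 lower in ETS1-Low (median log2 fold changes -0.34 and -0.04). There the pore gene ORAI2 was lower in both ETS1 groups (-1.07 and -0.93), the calcium sensor STIM1 was higher (0.67 and 0.51, local medians 0.31 and 0.37), and STIM2 was at -0.45 and -0.04. The second did not pass, although it did in the 3 FPKM fits (adjusted p 0.00023 to 0.00122, limma).

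Neuronal markers moved in the same libraries. Of 9 listed, 6 were tested, of which 0 were higher and 5 lower in ETS1-High against RFP, and 0 higher and 6 lower in ETS1-Low, where 37.2% and 36.2% of all tested genes were called lower. Their summed level was 181.9 to 184.8 CPM in RFP, 103.7 to 103.9 in ETS1-Low and 120.5 to 122.5 in ETS1-High, and RBFOX3, STMN2 and ELAVL4 stayed under 10 counts throughout. Their part in the channel results was not tested.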

How the data were processed

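The authors deposited expected counts and FPKM values per gene, in tables named for RSEM, for 9 libraries of TC-32 made with a stranded mRNA kit, per the labels' protocols. The submitters' processing notes name cutadapt 4.4, STAR 2.7.3, featureCounts (Subread 2.0.3), limma 3.38.3 and GRCh38, without roles. Between 9.00% and 10.3% of the expected counts per library were not whole, and they were rounded. Totals per library are in the first section. The deposited FPKM values served for levels between genes and as an alternative.

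The main test was the quasi-likelihood test of edgeR 4.0.16 in R 4.3.3. It used TMM, filterByExpr by group, a robust fit and group as the factor. All 9 libraries were in 1 fit, with Benjamini-Hochberg adjustment over 17235 genes. The test was checked on simulated data in which few genes changed, whereas most tested genes were called here against RFP. That check does not cover this setting. Symbols matched 39 channel genes, of which 2 are not reported here and are in no count, sum or figure of channel genes, though they stayed in the fit. Those passing the filter with a called change of at least 2-fold and a mean of at least 1 CPM in a group are given by library, with the others by counts or means, and up to 3 genes per context list are named, those of smallest p where ETS1-High is set against RFP. A few further context genes are named beside these. The channel genes, lists and tests were chosen with earlier results of these data known. Where a group held few counts, the fold is the ratio of summed counts with a 95% Clopper-Pearson interval. Local medians use tested genes within 10 Mb (GENCODE v44 positions, GRCh38, found for 99.1%); the authors' annotation release is not given in the sources used here. Same-numbered libraries did not deviate together (r from -0.03 to 0.03). Such values cannot exclude a shared culture or day, and the main test used no pairing. Alternatives were DESeq2 size factors, upper-quartile factors, the DESeq2 1.42.0 Wald test, limma 3.58.1 voom, other filters, a replicate block, fits without the group not compared, fits without single libraries, and limma on log2(FPKM + 1) or log2(FPKM + 0.1).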

Additional observations from a re-analysis of the deposited data

Results flagged for a closer look

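For 13 of the 23 tested channel genes the ETS1-Low and ETS1-High libraries differed by the edgeR test of ETS1-High against ETS1-Low. That is 56.5% of them, near the 59.2% of all tested genes called in this comparison, and so not a result about these genes as a group. Values are log2 fold changes of that comparison. ETS1-High was higher in CACNA1C (2.19), CACNA1G (1.52), CACNA2D1 (1.19), CACNB3 (0.24), CACNG3 (1.22), SCN1A (2.39), SCN2A (0.20), SCN3A (2.79), SCN4A (0.48), SCN9A (2.59) and SCN4B (0.96). It was lower in CACNA1I (-1.77) and CACNG8 (-3.63). In CACNA1I, ETS1-Low was the group that stood apart from the other 2, at 91.4 ± 1.92 CPM against 21.7 ± 0.667 and 26.7 ± 0.435 CPM (SD, n = 3). In CACNA1C, CACNA1G and CACNA2D1 it was ETS1-High. The difference in SCN2A did not pass in the 3 fits of FPKM values. With 3 libraries a group, no test for outlying libraries was run, and fits without single libraries are described in the next section.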

How the results depend on the processing

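Counts are given for ETS1-High against RFP, ETS1-Low against RFP and ETS1-High against ETS1-Low. The called channel genes numbered 22, 20 and 13, and 17, 15 and 9 at least 2-fold. With the replicate number as a block they were 22, 20 and 13, and 17, 15 and 9 at least 2-fold, so the block moved no count. Leaving out each library gave 22 to 24, 18 to 22 and 13 to 14, and at least 2-fold 17 to 19, 14 to 17 and 9 to 10. Settings that test fewer of these genes lowered the counts. At least 10 counts in every library kept 13 of them and gave 12, 12 and 9, and 7, 7 and 5 at least 2-fold. A mean FPKM of at least 1 kept 9: log2(FPKM + 1) gave 9, 6 and 6 and 3, 3 and 2, and log2(FPKM + 0.1) gave 9, 6 and 6 and 5, 3 and 5. On log2(FPKM + 1) with any value above 0 they were 18, 16 and 8 and 4, 4 and 2, a scale that understates low genes. There CACNA2D3, CACNB4, SCN3A and SCN3B lost a call in ETS1-High against RFP. In ETS1-Low against RFP, CACNA1C, CACNA1G, CACNB4 and CACNG3 lost one. Between the ETS1 groups, CACNB3, SCN2A, SCN3A, SCN4A and SCN4B lost one. Without a filter on low counts 24, 21 and 13 were called. Subtracting the local median turned CACNA1I in ETS1-High against RFP to -0.037 and FGF13 in ETS1-Low to 0.30. RCOR1 in ETS1-Low against RFP turned to -0.009, -0.0092 and -0.009 on the 3 FPKM settings, and the cause was not tested. The other sign changes were of values without a call. UNC80 in ETS1-High against RFP was -0.0002 with DESeq2 size factors, -0.049 with upper-quartile factors, -0.0026 in the DESeq2 test, -0.0073 with at least 10 counts and -0.13 to 0.15 without single libraries. Leaving out libraries gave -0.004 to 0.088 for CACNA2D1 in ETS1-Low against RFP and, between the ETS1 groups, -0.37 to 0.94 for CACNA1D and -0.063 to 0.18 for CACNA2D3.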

Other observations

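Genes tied to calcium entry and electrical activity were read as a list. It mixes genes whose transcription responds to activity, such as FOS, with transcription factors such as CREB1 and NFATC1, NFATC2, NFATC3 and NFATC4. The NFATC genes were all among the lower genes in both comparisons, so the counts below are not a measure of activity. Of these, 12 of 12 genes were tested, 3 were higher and 9 lower in ETS1-High against RFP, and 2 higher and 8 lower in ETS1-Low (median log2 fold changes -0.51 and -0.24), where the medians of all tested genes were -0.01 and 0.01. Of all tested genes 37.0% were called higher and 37.2% lower in ETS1-High, and 37.9% and 36.2% in ETS1-Low. FOS, an immediate early gene, had 213 ± 5.96 CPM in RFP, 181 ± 3.20 in ETS1-Low and 141 ± 3.50 in ETS1-High. EGR1, another such gene, rose instead, from 24.9 ± 2.61 CPM in RFP to 63.8 ± 1.09 in ETS1-Low and 34.5 ± 2.89 in ETS1-High. In ETS1-High against RFP, the scarce NPAS4 was also higher (log2 fold change 1.58), whereas FOSB, NR4A1, ARC and BDNF were lower. NFATC4, a factor that calcineurin activates, fell by 1.25 in ETS1-High and 1.90 in ETS1-Low on the log2 scale, and CREB1 rose by 0.58 and 0.24, with local medians of 0.47 and 0.23. The rise of CREB1 in ETS1-Low did not pass in the 3 FPKM fits (adjusted p 0.544 to 0.631, limma).

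REST represses many neuronal channel genes, sodium channels among them, in non-neuronal cells. REST itself had 41.6 ± 1.65 CPM in RFP, 37.8 ± 1.29 in ETS1-Low and 51.2 ± 0.988 in ETS1-High. Against RFP its log2 fold change was 0.30 (SE 0.04, adjusted p 1.19e-09) in ETS1-High and -0.14 (SE 0.04, adjusted p 0.00176) in ETS1-Low (edgeR). The rise in ETS1-High did not pass in the 3 FPKM fits (adjusted p 0.07 to 0.0937, limma). The REST corepressor RCOR2 fell by 1.19 in ETS1-High and 1.23 in ETS1-Low, and RCOR1 had log2 fold changes of 0.23 and 0.14. In this list 7 of 7 genes were tested, 3 were higher and 2 lower in ETS1-High against RFP, and 3 higher and 3 lower in ETS1-Low (median log2 fold changes 0.07 and 0.03).

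Among the channel genes below the filter, CACNA1S had 2, 3 and 2 counts in RFP and 0 in all ETS1 libraries, and SCN11A had 2, 2 and 7 in RFP, 0, 0 and 3 in ETS1-Low and 0 in ETS1-High.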
